A study of Mus musculus with 2 samples.

Results

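The genes of the DNA methylation machinery of mouse embryonic stem cells (ESCs) were followed in 2 maps of RNA polymerase II chromatin contacts. The 7 genes were Dnmt1, Dnmt3a, Dnmt3b, Dnmt3l, Tet1, Tet2 and Uhrf1, out of 22380 annotated protein-coding genes, of which 12817 had a contact in either map. They were chosen by function, with earlier results of these data known. A contact belonged to a gene when either of its ends lay within 1 kb of the GENCODE vM1 gene on the mm9 build, whether the other end was on the same or on another chromosome. All 7 genes had contacts in control cells and 6 of the 7 in Ronin knockout (KO) cells, Dnmt3a being the gene without any.

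Chromatin interaction analysis with paired-end tags (ChIA-PET) joins DNA ends held together by a protein, here RNA polymerase II precipitated with antibody 8WG16, and each sequenced pair of ends (a PET) links 2 polymerase peaks, called anchors. Both libraries came from ESCs of CreERT2; Roninflox/flox blastocysts grown on gelatine with serum and LIF, so that the control cells carried the same floxed alleles and the same Cre as the KO cells. Control cells received ethanol for 4 days and Ronin KO cells received tamoxifen for 4 days, which activates the Cre and removes Ronin (Thap11), a zinc finger protein of the THAP family that binds promoters. Each condition is 1 table in which the authors merged 2 experiments, so there is no spread between replicates, and every interval below covers counting error only. All tests compare these libraries and not the conditions.

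DNA methylation in mammals is placed on cytosines that precede guanines (CpG). Dnmt3a and Dnmt3b place it on unmethylated DNA and Dnmt3l, which has no catalytic activity, helps them. Dnmt1 copies it to the new strand after replication, guided by Uhrf1, which binds hemimethylated CpGs. Tet1 and Tet2 oxidize methylcytosine, which leads to its removal. Pluripotent cells express all of these genes, and methylation in them depends on the balance between writers and erasers.

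The control library held 156097 PETs in 128267 pairs of anchors and the Ronin KO library 65276 PETs in 44328 pairs, so the KO library had 41.8% of the control PETs (95% exact interval 41.4% to 42.2%). It had 49.2% of the PETs within chromosomes and 40.4% of those between chromosomes. Pairs with a single PET made up 98.3% of control and 97.9% of KO pairs, and over these pairs alone the KO library had 34.4% of the control PETs. A few pairs were far larger, 48 control and 33 KO pairs of at least 100 PETs holding 19709 and 15437 PETs, and without them the KO library had 36.5% of the control PETs. None of these large pairs touched the genes described here. The labelled cell type was checked against 6 ESC markers (Pou5f1, Nanog, Sox2, Zfp42, Esrrb, Klf4), all with PETs in both libraries, 597 in control and 188 in KO cells. The fibroblast markers Col1a1, Col1a2 and Thy1 had 0 PETs in both, and Gata4, Gata6 and Sox17 of the primitive endoderm had 3 and 6 together. The gene of Ronin itself, Thap11, had 109 control and 46 KO PETs, which measures contacts of the locus and does not check the deletion.

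The annotated starts of these genes differ in how many CpGs they hold, and the anchors did not always lie at the first start of a gene. The 250 bases upstream of 5 starts that carry the results below are shown 5′ to 3′ on the gene's strand, from the mm9 genome, with every CpG in capitals. For Dnmt3a and Dnmt3l the start shown is the inner start under the anchor.
Dnmt1, chr9:20757318-20757567, minus strand: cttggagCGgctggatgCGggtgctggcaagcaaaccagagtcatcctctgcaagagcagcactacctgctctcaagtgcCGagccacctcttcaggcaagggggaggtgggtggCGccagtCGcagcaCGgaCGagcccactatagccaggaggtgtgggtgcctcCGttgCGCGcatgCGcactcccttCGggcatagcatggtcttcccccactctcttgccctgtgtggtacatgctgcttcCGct
Tet1, chr10:62361867-62362116, minus strand: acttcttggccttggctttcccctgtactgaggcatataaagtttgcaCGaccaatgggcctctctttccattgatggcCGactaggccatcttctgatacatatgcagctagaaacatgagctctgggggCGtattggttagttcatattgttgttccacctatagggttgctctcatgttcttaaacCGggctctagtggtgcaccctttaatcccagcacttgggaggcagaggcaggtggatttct
Tet2, chr3:133207355-133207604, minus strand: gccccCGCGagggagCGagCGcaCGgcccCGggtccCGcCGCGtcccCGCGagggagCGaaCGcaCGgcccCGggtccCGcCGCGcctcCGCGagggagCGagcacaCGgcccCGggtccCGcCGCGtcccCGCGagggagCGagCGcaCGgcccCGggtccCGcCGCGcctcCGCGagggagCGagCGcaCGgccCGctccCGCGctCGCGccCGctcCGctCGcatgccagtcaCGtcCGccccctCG
Dnmt3a inner start, chr12:3891478-3891727, plus strand: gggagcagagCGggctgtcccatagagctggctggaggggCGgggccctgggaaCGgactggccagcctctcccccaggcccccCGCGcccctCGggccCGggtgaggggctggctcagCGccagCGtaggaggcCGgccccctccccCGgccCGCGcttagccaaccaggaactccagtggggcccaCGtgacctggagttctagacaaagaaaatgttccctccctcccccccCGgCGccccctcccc
Dnmt3l inner start, chr10:77512337-77512586, plus strand: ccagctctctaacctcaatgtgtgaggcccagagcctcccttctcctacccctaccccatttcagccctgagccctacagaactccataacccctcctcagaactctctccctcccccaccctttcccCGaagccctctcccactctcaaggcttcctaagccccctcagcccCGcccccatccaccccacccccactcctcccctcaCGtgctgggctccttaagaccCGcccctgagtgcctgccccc
The Tet2 sequence holds 51 CpGs, that of the Dnmt3a inner start 16 and that of Dnmt1 13, while those of Tet1 and the Dnmt3l inner start hold 4 each. Counted from 250 bases before to 50 bases after the start, the CpG number of Tet2 was at the 99.8th percentile of all 22380 promoters and that of Tet1 at the 30.2nd. The 15-letter Ronin-binding motif known from promoters was searched on both strands, and neither it nor a copy with up to 1 mismatch was found in this window at any annotated start of the 7 genes. Of all promoters, 0.920% held an exact copy and 2.30% a copy with up to 1 mismatch.

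Tet1 had the most contacts of the group, with 175 PETs in control and 45 in KO cells. Dnmt1 followed with 112 and 36, Uhrf1 with 72 and 15, Tet2 with 39 and 13, Dnmt3l with 20 and 6, Dnmt3a with 13 and 0, and Dnmt3b with 2 and 1. In control cells Tet1 stood at the 96.9th percentile of genes with PETs, Dnmt1 at the 92.5th and Uhrf1 at the 85.8th, while Dnmt3b stood at the 5.9th. The intervals of neighbours in the order did not overlap between Tet1 and Dnmt1 (150 to 203 and 92.2 to 135 in control cells) or between Dnmt1 and Uhrf1 (upper limit 90.7), but they did between Tet2 and Dnmt3l, between Dnmt3l and Dnmt3a and between Dnmt3a and Dnmt3b. In KO cells the intervals of Tet1 (32.8 to 60.2) and Dnmt1 (25.2 to 49.8) overlapped. These counts grow with the width of the anchors at a gene, so they give the number of contacts and not the amount of polymerase.

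**Figure D1:**
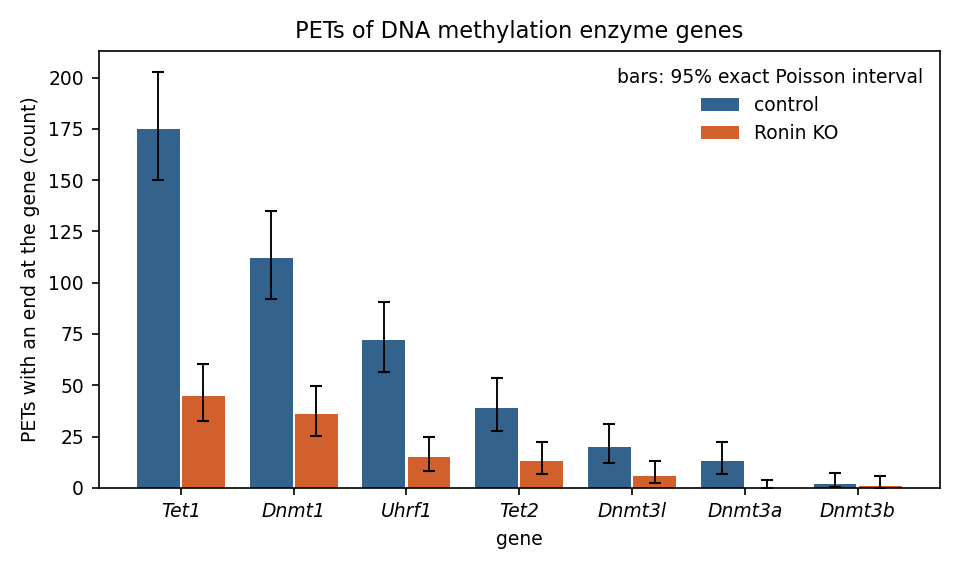
PETs with an end at each gene (y axis, count) for the 7 genes (x axis, in order of their control PETs), in the control (blue) and Ronin KO (orange) library, with 95% exact Poisson intervals. Tet1, with 175 and 45 PETs, Dnmt1 and Uhrf1 carry most of the contacts, and Dnmt3b has 2 and 1.

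The 7 genes together had 433 PETs in control and 116 in KO cells, which is 26.8% of control (21.6% to 33.0%). The interval lies below the 41.8% of the whole libraries, and also below the 34.4% over pairs with 1 PET. Much of the group's sum lay at anchors shared with genes outside the group. These held 166 control and 29 KO PETs for Tet1, 63 and 26 for Dnmt1, and 72 and 15 for Uhrf1. Such PETs cannot be assigned to the group alone, and the ratio without them was not tested. With anchors within 1 kb of the gene start alone the group's value was 13.95%, and 29.4% (19.8% to 42.7%) without Tet1, whose start anchors differ in extent between the libraries. The start anchors of Tet2, which stay in the 29.4%, differ as well, in the other direction. They were 7.13 kb wide with 5 PETs in control and 16.5 kb wide with 12 in KO cells. The 6 ESC markers also had a lower ratio, 31.5% of control (26.6% to 37.2%), with Zfp42 at 19.1%, Esrrb at 24.6% and the other 4 at 42.0% to 47.8%, and its part in the group's ratio was not tested. Contacts between chromosomes gave 400 and 106 PETs (26.5%, 21.2% to 32.9%) and those within chromosomes 33 and 10 (30.3%, 13.3% to 62.9%). Each gene had fewer PETs in KO cells. The same was true of 93% of the 10313 genes with at least 6 PETs and is no property of these genes. Against the KO share of all PETs, the 6 genes with at least 6 PETs were all on the lower side, as were 61% of all genes tested. The median log2 ratio scaled to the library totals, with 1 PET added to each count, was −0.52 over these 6 genes and −0.11 over all genes tested.

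Gene by gene, an exact binomial test against the KO share of all PETs (two-sided, Benjamini-Hochberg adjusted over the 10313 genes) called none of the 6 tested genes. Over all genes this test called 3.06% lower and 2.56% higher in KO cells. At an unadjusted p under 0.05 there were 3 of the 6 genes, Tet1, Dnmt3a and Uhrf1, each lower in KO cells, against 15.5% of all genes in either direction. Tet1 had 25.7% of its control PETs left (18.1% to 35.9%, exact p = 0.00301, adjusted p = 0.0534). Of its PETs, 166 in control and 29 in KO cells lay at anchors shared with the neighbouring gene Ccar1. Uhrf1 had 20.8% left (11.1% to 36.7%, exact p = 0.0130, adjusted p = 0.144), and all of its PETs lay at anchors shared with other genes. Dnmt1 had 32.1% left (21.4% to 47.2%, adjusted p = 0.597), Tet2 33.3% (16.3% to 63.8%, adjusted p = 0.901) and Dnmt3l 30.0% (9.86% to 77.5%, adjusted p = 0.962) by the same exact test, and the intervals of these 3 genes include 41.8%. The calls depend on what is taken as the library ratio. With the ratio of PETs within chromosomes (49.2%), Tet1 and Uhrf1 were among 906 of the 10313 genes called lower, with 229 called higher. That ratio was set against counts mostly from contacts between chromosomes, 93.7% of control PETs for Tet1 and 94.4% for Uhrf1. For contacts between chromosomes alone, against their own library ratio (40.4%), the exact binomial test called neither gene (adjusted p = 0.152 and 0.218). Within chromosomes alone Tet1 had 11 control and 2 KO PETs and was not called. Against the ratio over pairs with 1 PET (34.4%, chosen after the data were seen), no gene of the group was at an unadjusted p under 0.05 except Dnmt3a at 0.0490.

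**Figure D2:**
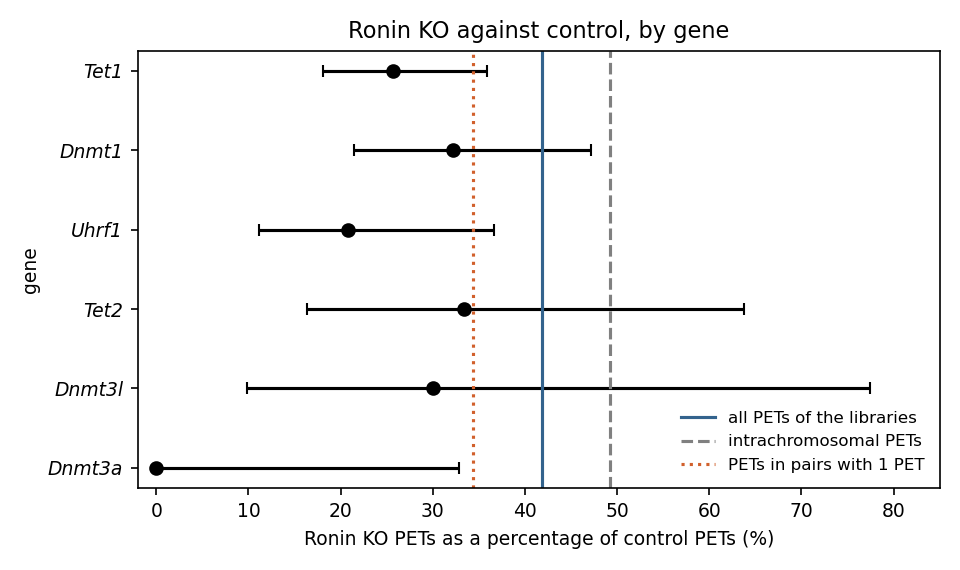
Ronin KO PETs as a percentage of control PETs (x axis) for the 6 genes with at least 6 PETs (y axis), with 95% exact intervals. Vertical lines give the same percentage for all PETs (41.8%), for PETs within chromosomes (49.2%) and for PETs in pairs with 1 PET (34.4%), and the intervals of Tet1, Uhrf1 and Dnmt3a lie below the first of these.

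The genes were also read against others with a like number of control PETs (80% to 125% of the gene's own). Such genes had a median of 56 KO PETs beside the 45 of Tet1, 24 beside the 15 of Uhrf1, 14 beside the 13 of Tet2 and 7 beside the 6 of Dnmt3l. For Dnmt1 the median was 36, its own count. Each of these 5 counts lay between the 5th and the 95th percentile of the like genes, the nearest to an edge being Uhrf1 with 15 against 12. Dnmt3a, with 0 PETs against a median of 5, lay below the 5th percentile of 1.

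**Figure D3:**
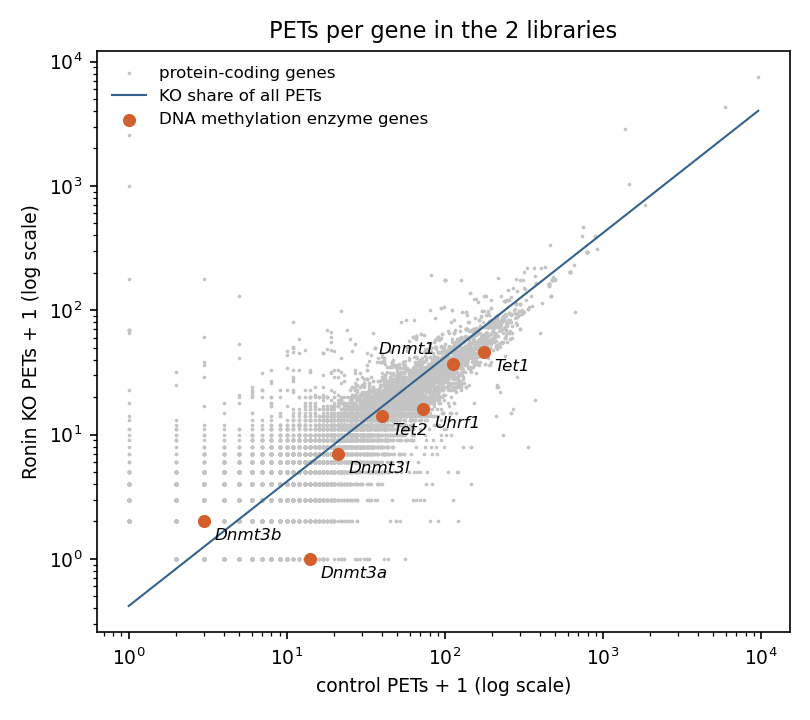
PETs per protein-coding gene in control (x axis) and Ronin KO cells (y axis), 1 PET added to each, both axes logarithmic. The line (labelled KO share of all PETs) is drawn at 41.8% of control, the ratio of the whole libraries. The 6 tested genes of the group (orange) lie below it within the cloud of other genes (grey).

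Dnmt1, the maintenance methyltransferase (ENSMUSG00000004099, chr9:20711650-20757317, minus strand), showed different values at its 2 ends. An anchor over the start, chr9:20731851-20760784 in control cells, held 49 PETs, and its KO counterpart held 9, or 18.4% (7.93% to 37.8%). The anchor over the 3′ part, chr9:20688652-20729921, is shared with the translation initiation factor gene Eif3g and the ribosome biogenesis gene Ppan. It held 63 control PETs and 26 in KO cells, or 41.3% (25.1% to 66.1%), close to the library ratio. The KO anchor was narrower, 33.7 kb against 41.3 kb. Another KO anchor of 2.09 kb, which overlaps the control one, held 1 PET. Reads at the shared anchor cannot be assigned to Dnmt1 alone. Counting only anchors within 1 kb of the gene start, the exact p of Dnmt1 was 0.0204 and the gene was still not called. Between the 2 ends the intervals overlap.

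Uhrf1, the reader of hemimethylated CpGs (chr17:56442744-56462909, plus strand), lay under a single anchor in each library, chr17:56437454-56473001 with 72 PETs and chr17:56438638-56472873 with 15. The anchors are nearly equal in width, 35.5 kb and 34.2 kb, so the density of PETs went from 20.3 to 4.38 per 10 kb. Both also take in the arrestin domain gene Arrdc5 and the histone demethylase gene Kdm4b, which had 83 and 81 PETs in control and 23 and 18 in KO cells. The PETs of Uhrf1 cannot be assigned to it alone.

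Tet1, the main methylcytosine oxidase of ESCs (chr10:62267318-62361866, minus strand), lay in control cells under an anchor of 121 kb, chr10:62240889-62362300, which runs from the start of the gene through its end into the neighbouring cell cycle gene Ccar1. Of the 27757 control anchors only 4 were wider. It held 166 PETs, and an anchor of 4.83 kb upstream of the start held another 9. In KO cells the same stretch was divided into 5 anchors that lay nearly end to end, with 29 PETs at the 3′ anchor shared with Ccar1, 9, 2 and 1 in the gene body and 5 over the start. These sum to 46 because 1 PET joined 2 of the anchors and is counted once in the 45 of the gene. Ccar1 itself had 191 PETs in control and 35 in KO cells, and PETs at the shared anchors cannot be assigned to Tet1 alone. Anchors with Tet1 alone held 9 PETs in control and 17 in KO cells, but they cover different stretches in the 2 libraries. The density of PETs was 13.9 per 10 kb of anchor in control and 3.81 in KO cells. Because the KO anchors are narrower, counting only anchors within 1 kb of the start sets 175 control PETs against 5, and Tet1 was then called by the exact binomial test (adjusted p = 4.5e-18). That value compares anchors of different extent. With anchors chosen this way the test called 235 of the 8498 genes tested lower and 257 higher in KO cells.

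Tet2, the other Tet enzyme studied (chr3:133126643-133207354, minus strand), had a different layout. In control cells 11 anchors of 1.07 kb to 8.97 kb were scattered along the gene with 1 to 13 PETs each, and 5 PETs lay at the anchor over the CpG-rich start shown above. In KO cells only 2 anchors were found, of which that over the start, chr3:133192859-133209401, was 16.5 kb wide and held 12 of the 13 PETs. Counted by the start alone Tet2 went from 5 to 12 PETs and was called higher by the exact binomial test (adjusted p = 0.0130). That way of counting called 257 of the 8498 genes tested higher and 235 lower in KO cells. The control anchors that overlap the KO start anchor held 17 PETs, however, so that over the same stretch KO cells had 70.6% of control (30.8% to 157%). Outside that stretch Tet2 had 22 PETs in control and 1 in KO cells. The stretch was set by the KO anchor that held 12 of the 13 KO PETs, so few could lie outside it. The same choice raises the 70.6%, and a change along the gene was not tested.

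Among the de novo enzymes, Dnmt3a (chr12:3806007-3914443, plus strand) had 13 control PETs and none in KO cells. Of these, 11 lay at chr12:3886712-3894336, over the inner start 85.7 kb into the gene that is shown above. That start begins the shorter Dnmt3a isoform known from ESCs, and no anchor lay over the first starts of the gene. With 0 KO PETs the exact interval allows up to 32.8% of control (exact p = 0.0142, adjusted p = 0.151). Dnmt3b (chr2:153475186-153513466, plus strand) had 2 PETs in control cells, both at an anchor beyond its 3′ end (chr2:153513553-153516954), and 1 in KO cells at its start (chr2:153474476-153476262), too few for a test. Dnmt3l (chr10:77504692-77526367, plus strand), the cofactor, had all 20 control PETs at chr10:77508668-77529003, which takes in 3 inner starts, 7.9 kb, 8.01 kb and 13.4 kb into the gene, and not the first start. In KO cells 5 of its 6 PETs lay over the same inner starts and 1 at a small anchor before them.

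**Figure D4:**
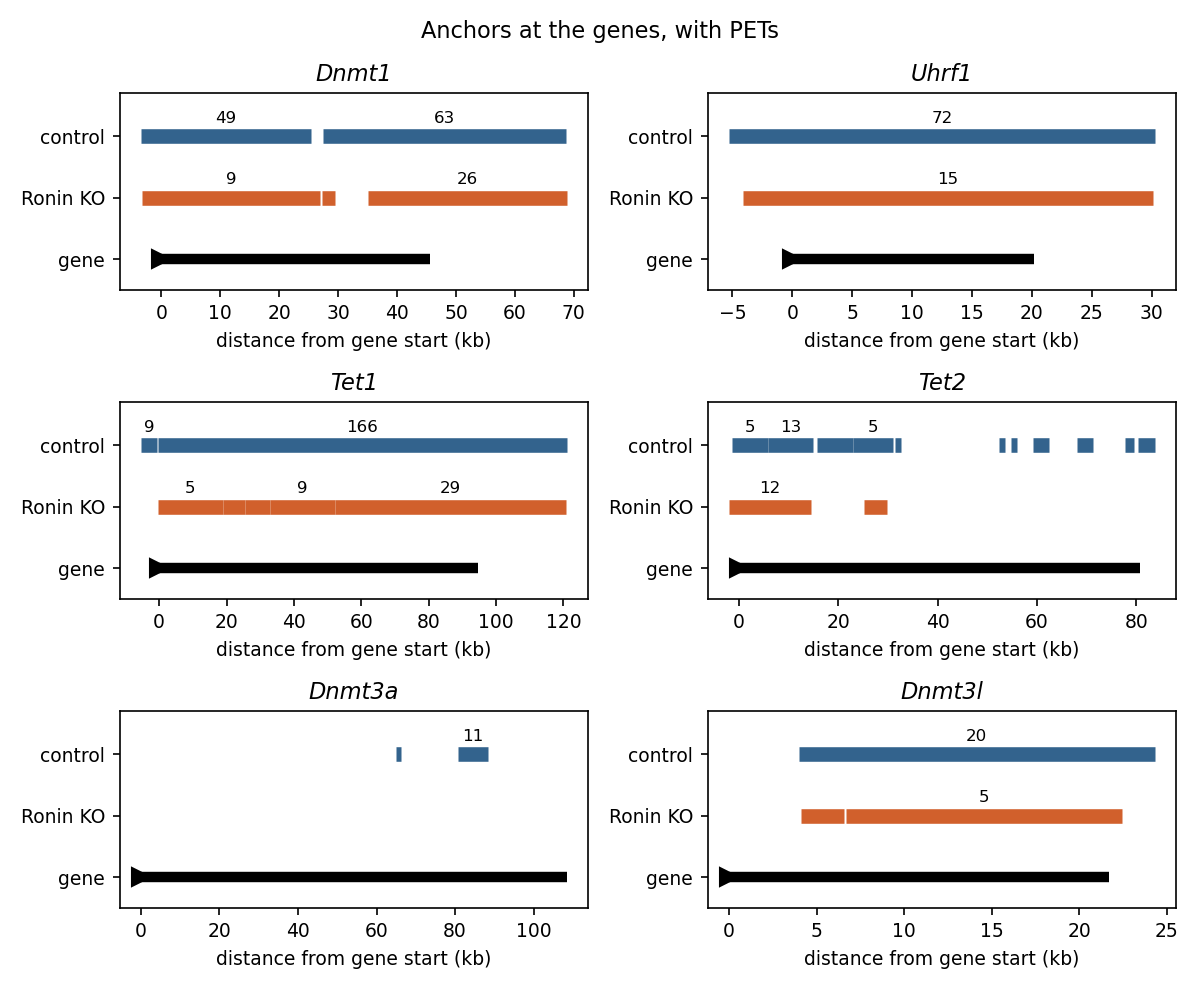
Anchors at 6 of the genes in control (blue) and Ronin KO cells (orange) along the distance from the annotated gene start (x axis, kb, in the direction of transcription), above the gene (black). Numbers are PETs of anchors with at least 5, such as 166 for the widest Tet1 anchor against 29, 9 and 5 at the KO anchors of the same stretch.

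No anchor at these genes held an exact Ronin-binding motif. A copy with up to 1 mismatch lay in the wide Tet1 anchor of control cells, in the 3′ Tet1 anchor of KO cells and in the Tet2 start anchor of KO cells. Anchors of similar width (75% to 125%) held such a copy in 26.7%, 25.7% and 7.63% of cases. A match in letters is not a bound site.

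Almost all contacts of these genes were single PETs. The 433 control PETs formed 430 pairs, 427 of 1 PET and 3 of 2, and the 116 KO PETs formed 115 pairs. No pair held more than 2 PETs in either library. The paper asked for 3 independent PETs for a high-confidence interaction, so no pair described here reached its criterion. It also left contacts between chromosomes out of its later analyses of Ronin contacts, as they are reported to be noisier. The partners named below are therefore single observations. Contacts between chromosomes made up 92.4% of the control PETs and 91.4% of the KO PETs of the group, against 84.2% and 81.4% of the libraries, or 87.7% and 82.9% without the pairs of at least 100 PETs. The partners were spread over the genome. Dnmt1 alone reached 110 partners on 20 chromosomes in control cells, and Tet1 173. Of 415 distinct control partners, 305 (73.5%) lay near an annotated gene start, and of 112 KO partners 83 (74.1%). The ends of all pairs lay near a start in 71.5% and 74.5%, so the partners of these genes were promoters about as often as any partner.

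No contact joined different genes of the group in either library. The pairs that began and ended in the same gene were 1 within Tet2 in control cells, between neighbouring anchors, and 1 within Tet1 in KO cells, both ends of which lie inside the single control anchor. A few partners belong to the wider methylation pathway. In control cells Tet1 and Uhrf1 each had 1 PET to an anchor on chromosome 8 that takes in Ctcf, an insulator protein gene, Tet1 had 1 PET to Uhrf2, a relative of Uhrf1, and Tet2 had 1 PET to Hells, a chromatin remodeler needed for methylation. In KO cells Tet1 had 1 PET to Gadd45b, 18.1 Mb away on the same chromosome.

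Within chromosomes, Dnmt1 had 10 partners in control and 6 in KO cells. In control cells they were the sphingosine phosphate receptor gene S1pr2 at a distance of 15.6 kb, Mrpl4 of the mitochondrial ribosome at 42.5 kb and Dnm2, a dynamin, at 513 kb, followed by 2200002K05Rik, Sesn3, Zbtb44, St14, Ei24, Ddx6 and Gk5 at 5.69 Mb to 75.3 Mb. In KO cells Mrpl4 appeared again, from the other Dnmt1 anchor and 81.0 kb away. Other KO partners were Cdc37, a chaperone gene, at 227 kb and the anchor of Arcn1 and Ift46 at 23.8 Mb. Each of these was 1 PET, and no pair of anchors of Dnmt1 was found in both libraries.

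The other genes had from 0 to 11 partners on their own chromosome in each library. Uhrf1 met the lipid droplet gene Plin3 at 14.2 kb, Spats1 with Gm9104, the kinase gene Stk38 at 27.3 Mb and an anchor without genes in control cells, and in KO cells the splicing factor gene U2af1 at 24.6 Mb. Dnmt3l met Icosl at 7.04 kb, the anchor of Ndufa12 and Nr2c1, and that of BC067068 and Ccdc59 in control cells only. Dnmt3a met Atad2b at 1.02 Mb and Dnmt3b met Rnf114 at 13.8 Mb in control cells. Tet1 had 11 such pairs in control cells, of which the nearest was the anchor of Sar1a and Tysnd1 at 1.08 Mb. Others were Dnajb12, Jmjd1c, Cd24a, Txnrd1, Ppp1r12a, and anchors that take in Dot1l, Bclaf1, Ppil4, and Rmnd1 with Zbtb2, together with an anchor without genes. Tet2 met Fabp12 and an anchor that takes in Hax1, Ubap2l and Tpm3 in control cells, and the histone genes Hist2h2ab, Hist2h2ac and Hist2h2be in KO cells.

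The median distance of the pairs within chromosomes was 14.8 Mb over 32 control pairs and 0.818 Mb over 9 KO pairs, where all intrachromosomal pairs of the libraries had medians of 10.3 Mb and 4.55 Mb. Under 1 Mb lay 5 of the 32 and 5 of the 9. The 5 short KO pairs all belong to Dnmt1, so that the shorter KO median describes this gene and not the group.

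**Figure D5:**
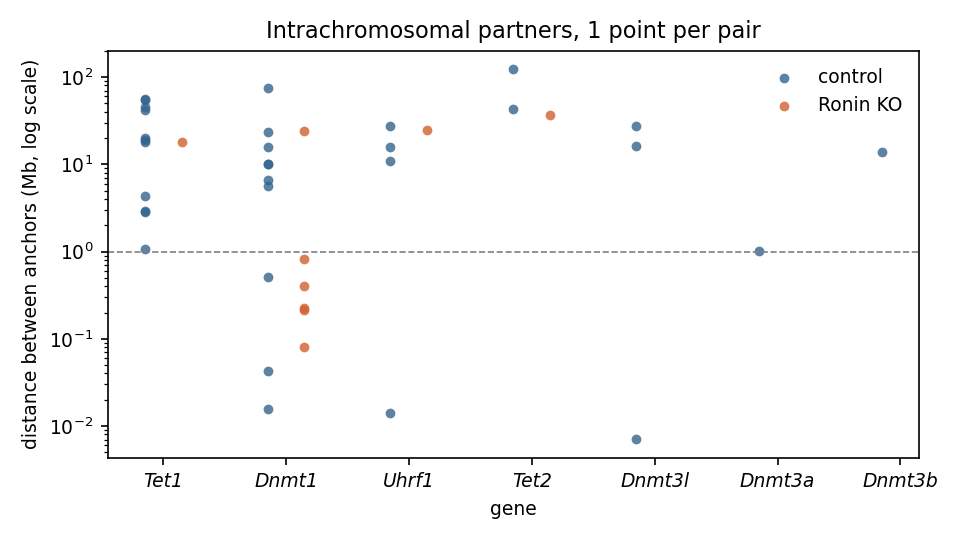
Distance between the anchors of each intrachromosomal pair (y axis, Mb, logarithmic) by gene (x axis), in control (blue) and Ronin KO cells (orange), pairs within a gene left out. The dashed line marks 1 Mb, and the 5 KO points below it are all at Dnmt1.

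Between chromosomes, 4 pairs reached 2 PETs, of which 3 are named here. In control cells they joined Dnmt1 with 2810474O19Rik on chromosome 6 and Uhrf1 with the anchor of Canx, an endoplasmic reticulum chaperone gene, and Maml1 on chromosome 11. In KO cells Tet1 was joined with Vprbp on chromosome 9. A histone cluster on chromosome 13 (Hist1h1a, Hist1h1c and neighbouring genes) was a Tet1 partner in both libraries, with 1 PET each at the cluster and 1 more at a small control anchor beside it. That cluster was among the busiest anchors, with 792 PETs in control cells and 291 in KO cells. Counting both kinds of pair, 3 of the 429 control pairs (0.699%) and 2 of the 114 KO pairs (1.75%) that left the gene were found in the other library, against 1.36% and 3.93% of all pairs. The pairs found were all between chromosomes, 3 of 397 (0.756%) and 2 of 105 (1.90%), where the libraries had 0.992% and 2.90%.

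Partners were rarely common to different genes of the group. In control cells 12 of 415 partners met more than 1 of the genes, and in KO cells 2 of 112. Among them Dnmt1 and Tet1 shared the histone cluster of chromosome 13, Ipo5, Stk38 and an anchor of Zfp524, Zfp784 and Zfp865, and Tet1 and Uhrf1 shared the anchor of Ctcf, Arih1, that of Fn1, that of Etf1 and Hspa9, and that of Dido1. Dnmt3a and Uhrf1 both met the anchor of Gm10801 on chromosome 2, which is 1.28 kb wide and had 1317 PETs. In KO cells Tet1 shared the histone cluster with Dnmt3b and the anchor of Nfs1, Rbm39 and Romo1 with Dnmt3l. Each of these meetings was 1 PET for each gene.

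The genes most like each member by the 4 counts of PETs, within and between chromosomes in both libraries (Euclidean distance of square roots over these 4 counts), were Nup98, Gpr1 and Eno3 for Dnmt1, Nucks1, Etnk1 and Enah for Tet1, and Mapk1ip1, Ppp2r2d and Cct2 for Uhrf1. For Tet2 they were Idh3g, Srpk3 and Sf3b2, for Dnmt3l Pigyl, Prkrip1 and Prkaa1, and for Dnmt3a Gm17509, Gipc2 and Cox7c. Dnmt3b had the same 4 counts as 27 other genes. Nup98, the nearest to Dnmt1, had 10 and 106 control PETs and 6 and 31 KO PETs within and between chromosomes.

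The wider pathway was read over 36 other genes, among them readers of methylated DNA, repair enzymes of the base removal path and suppliers of the methyl donor. Of these, 34 had PETs, 31 were tested and the exact binomial test called none, with 1 at an unadjusted p under 0.05. Their 1605 control and 594 KO PETs gave 37.0% of control (33.6% to 40.7%), and 22 of the 31 were below the library share. The scaled log2 ratio had a median of −0.24 over the 31 genes. The gene at an unadjusted p under 0.05 was Trim28, the corepressor of retroelements that protects imprints, with 111 and 29 PETs (exact p = 0.0257, adjusted p = 0.216). Among genes that act with Dnmt1 and Uhrf1 in maintenance, Usp7, a deubiquitinase, had 161 and 53 PETs and Hells 136 and 41. The replication clamp Pcna, also among them, had 132 and 59. Uhrf2, a relative of Uhrf1, had 79 and 25. Mat2a, which makes the methyl donor, had 147 and 60, the repair endonuclease Apex1 130 and 55, and Ctcf 129 and 56. Pcna, Apex1 and Ctcf lay slightly above the library ratio. Tet3, the third Tet enzyme, had 4 control PETs and 0 KO PETs, and Cxxc4 and Smug1 had none in either library.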

How the data were processed

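Members and gene lists were chosen with earlier results of these data known. Per the paper's methods and the submitters' processing notes, the authors removed linkers with cutadapt, aligned mates to mm9 with Bowtie 1.1.1, called peaks with MACS 1.4.2, collapsed duplicate PETs and dropped intrachromosomal PETs under 4 kb. The values deposited by the authors are raw counts of PETs per pair of peaks and per peak, the signed score for the distance of a pair (not used for tests), and p-values per pair, of which the adjusted ones entered only 1 alternative. The 2 tables were read with Python 3.11.15 and scipy 1.17.1. Anchors within 1 kb of a protein-coding gene of GENCODE vM1 were assigned to it, and a pair was counted once per gene. Counts were given 95% exact Poisson intervals, and KO percentages exact (Clopper-Pearson) ones. Genes with at least 6 PETs were tested by an exact binomial test, Benjamini-Hochberg adjusted, called at 0.05. The procedure was run on simulated counts whose unchanged genes were drawn at the tested share. Those counts held counting error only, so they do not show how the test behaves with other variation between libraries. Named were the 7 genes, their partners within chromosomes, partners between chromosomes with 2 PETs or in both libraries, genes at shared anchors, 8 pathway genes with most PETs and any called, and 3 nearest genes per member. Partners shared by members and pathway genes among partners were added after seeing the data. Some partners are not reported here. Sequences came from the mm9 genome.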

Additional observations from a re-analysis of the deposited data

How the results depend on the processing

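The KO percentage of the group's PETs, 26.8%, stayed within its interval with pairs within or between chromosomes only, with adjusted p under 0.05, with anchors overlapping or within 5 kb of the genes, without each gene's largest pair, and with single-PET pairs only (added after seeing the data). It was 33.3% with at least 2 PETs per pair, which left 6 and 2 PETs, and 13.95% with anchors within 1 kb of the gene start, where Tet1 went from 175 to 5. The percentage of partners was 33.3% and 14.1% in these settings. The other pathway genes went from 37.0% to 41.7% within chromosomes and 23.8% with at least 2 PETs. Within chromosomes Dnmt1 was at 60.0%, with or without the adjusted p, above the library ratio, and Tet2 was at 240% by its start. Genes called lower and higher over the libraries, 316 and 264, became 18 and 35 within chromosomes, 231 and 76 with at least 2 PETs, 5636 and 100 with equal shares, 906 and 229 with the share within chromosomes, and 4358 and 136 with the study's totals of PETs over 5 kb. With single-PET pairs as the share they were 117 and 406, and with pairs under 100 PETs 140 and 342 (both added after seeing the data). Dnmt1, Dnmt3a, Tet1, Tet2 and Uhrf1 were called lower with equal shares and with the totals over 5 kb, and Dnmt3l with equal shares only. Tet1, with 173 and 43 PETs, was also called without each gene's largest pair (adjusted p = 0.0321, exact binomial test). The share of the libraries was not recomputed there, and taking off a pair of 2 PETs in each library lowers the KO percentage by itself. No paired analysis was possible because each condition has 1 library. Depth limits the values of single genes: for Dnmt3l, with 20 control PETs, the interval spans 9.86% to 77.5%.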
